A study of Mus musculus with 6 samples.

Results

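Keratins and the proteins of the cornified envelope form the tough outer layers of skin and hair, and their RNA was read here in libraries of killer T cells. The 88 genes described were the protein-coding rows of the table whose names mark them as keratins, keratin-associated proteins, small proline-rich proteins, late cornified envelope proteins, calmodulin-like Calm4 or a desmoglein of the Dsg1 group, out of 27480 genes in all. The family was selected on its fold changes between the PTMA and vector groups, since the gene ontology term for keratinization had come out as lower in the PTMA libraries, so those fold changes are given as a description only. A further 12 rows carry a matching name but another transcript type, among them Krt1, Krt6a, Krtdap and Flg, and stand just outside the rule.

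The 3 PTMA libraries came from mouse OT1 CD8+ T cells with an overexpression construct for PTMA, a small acidic nuclear protein, and the 3 vector libraries from the same kind of cell with the empty overexpression vector. All cells had a transgenic T cell receptor for an ovalbumin peptide, are labelled wild type (WT) in genotype, and had received that peptide (OVA) for 48 h. The kind of vector, the age of the mice and whether the libraries came from separate animals or cultures are not given in the labels, so a p-value here speaks only of how far these 6 libraries scatter, and that scatter may be technical. Depth lay between 54989408 and 66767589 counts in a library. The list of 10 CD8 T cell genes, led by Ptprc, Lck, Cd3g and Cd3d, had a summed level of 7824, 7977 and 7609 CPM in PTMA 1 to 3 and 7602, 7527 and 8116 CPM in vector 1 to 3, where CPM are counts scaled to library size, with TMM factors.

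Keratins are filament proteins that assemble as pairs of an acidic type I and a basic type II chain. Basal cells of the epidermis make Krt14 with Krt5, the layers above them switch to Krt10 with Krt1, and Krt16, Krt17 and Krt6 chains are made in the hair follicle, the sole and in wounded or stressed skin. As the cells die outward, small proline-rich (SPRR) and late cornified envelope (LCE) proteins are cross-linked into a shell under the membrane. The hair shaft has its own keratins, embedded in keratin-associated proteins. T cells are not known for making most of these proteins.

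Of the 88 genes, 31 lie in one stretch of chromosome 3 (92215799 to 93019060 on GRCm38), the epidermal differentiation complex with its SPRR and LCE genes, and these held 50.4% of the counts of all 88. The 25 genes in the type I keratin cluster of chromosome 11 (99315516 to 100261029) held 39.1%, and the 10 genes in the type II cluster of chromosome 15 (101431038 to 102032027) held 6.01%. The 16 genes on chromosome 16 are all keratin-associated proteins of hair and held 0.982%. These stretches hold most of the 88 genes, because the families chosen by name lie in clusters, so this grouping follows from the choice of genes.

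The sequences before 7 starts are shown because many SPRR genes and some LCE genes, the families with most of the counts, carry a short element near the start. Krt10, of neither family, is shown beside them. Each line gives 120 bases before the RefSeq start (GRCm38.p6), 5′ to 3′ on the gene's own strand. Capitals mark TATAAA, the usual TATA box, in Krt10 and the SPRR genes, TGAGTCA, the letters AP-1 factors bind, in Sprr1a, and AATAAAAG in the LCE genes.
Krt10, chr11:99389365-99389484, minus strand: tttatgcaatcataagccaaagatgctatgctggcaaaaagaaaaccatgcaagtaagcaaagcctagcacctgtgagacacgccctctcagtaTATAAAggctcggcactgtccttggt
Sprr1a, chr3:92485882-92486001, minus strand: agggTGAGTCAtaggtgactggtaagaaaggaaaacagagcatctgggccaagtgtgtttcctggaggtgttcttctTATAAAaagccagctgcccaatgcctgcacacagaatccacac
Sprr1b, chr3:92438780-92438899, minus strand: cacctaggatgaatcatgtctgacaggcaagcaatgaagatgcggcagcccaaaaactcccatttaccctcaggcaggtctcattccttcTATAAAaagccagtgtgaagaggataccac
Sprr2d, chr3:92339020-92339139, plus strand: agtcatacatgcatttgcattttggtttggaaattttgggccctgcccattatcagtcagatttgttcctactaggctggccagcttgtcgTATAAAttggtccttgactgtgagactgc
Lce1c, chr3:92679127-92679246, plus strand: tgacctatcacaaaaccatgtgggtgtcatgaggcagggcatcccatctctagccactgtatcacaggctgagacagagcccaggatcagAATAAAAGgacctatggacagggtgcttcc
Lce1e, chr3:92709075-92709194, minus strand: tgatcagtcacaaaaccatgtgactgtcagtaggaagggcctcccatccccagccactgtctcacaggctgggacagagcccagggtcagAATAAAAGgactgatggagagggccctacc
Lce1i, chr3:92778900-92779019, minus strand: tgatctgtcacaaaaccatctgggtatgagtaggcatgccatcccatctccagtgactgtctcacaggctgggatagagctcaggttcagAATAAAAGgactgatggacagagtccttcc

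The TATA box began 26 bases before the start in Krt10, 43 in Sprr1a, 30 in Sprr1b and 29 in Sprr2d, and AATAAAAG began 30 bases before the start in all 3 LCE genes shown. Every sequence shown carries marked letters, so their presence in these genes is not a rate. The same stretch before Lce1a1, Lce3c and Calm4 carries none of them. RefSeq promoters were found for 74 of the 88 genes. Within the 250 bases before the start, searched on both strands (TATAAA or TTTATA), 42 of these 74 held the TATA letters, or 56.8%, against 12.4% of 32851 promoters in the table. The share was 8 of 11 for SPRR genes and 22 of 28 for keratin-associated proteins, but 3 of 19 for LCE genes. AATAAAAG or CTTTTATT, searched after the LCE sequences had been read and not containing TATAAA, stood in 8 of 19 LCE promoters against 1.77% of all. TGAGTCA or TGACTCA stood in 7 of 11 SPRR promoters against 4.46% of all. A match of letters is a description and not a binding site.

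The genes were present in 3 of the 6 libraries, PTMA 1, vector 2 and vector 3, and nearly absent from PTMA 2, PTMA 3 and vector 1. The 88 genes summed to 3498, 233 and 153 raw counts in PTMA 1 to 3 and to 124, 5002 and 6465 in vector 1 to 3. On the CPM scale these sums were 53.9, 3.57 and 2.33 in PTMA 1 to 3 and 2.21, 77.5 and 104 in vector 1 to 3. Each group therefore had libraries with and libraries without these transcripts, and the groups overlapped. The libraries without them were both the shallowest, vector 1, and the deepest, PTMA 2, of the 6. A count was listed for 70, 9 and 5 of the 88 genes in PTMA 1 to 3 and for 2, 62 and 66 in vector 1 to 3.

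Krt10 and Krt18 were the members with a count in vector 1, and both were also read in PTMA 2 and PTMA 3. Without these, the other 86 genes had 3276, 32 and 37 counts in PTMA 1 to 3 and 0, 4831 and 6135 in vector 1 to 3. In vector 1 not one of the 86 genes had a count, and the upper limit for a gene listed at 0, set at 3 counts, was 0.0536 CPM there and 0.0456 to 0.0484 CPM in the other libraries. If 4 counts stand for 1 fragment, as the makeup of the counts described further on allows, the limit is 12 counts, or 0.214 CPM there and 0.183 to 0.193 CPM in the others. Of the 88 genes, 38 (43.2%) were listed in PTMA 1, vector 2 and vector 3 and in no other library, as were 152 of all 27480 genes (0.553%). Raising the requirement to 20 counts in each of these 3 libraries and 0 in the other 3, a rule written after the values were seen, left 21 of the 88 genes (23.9%) and 34 of all 27480 genes (0.124%).

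**Figure D1:**
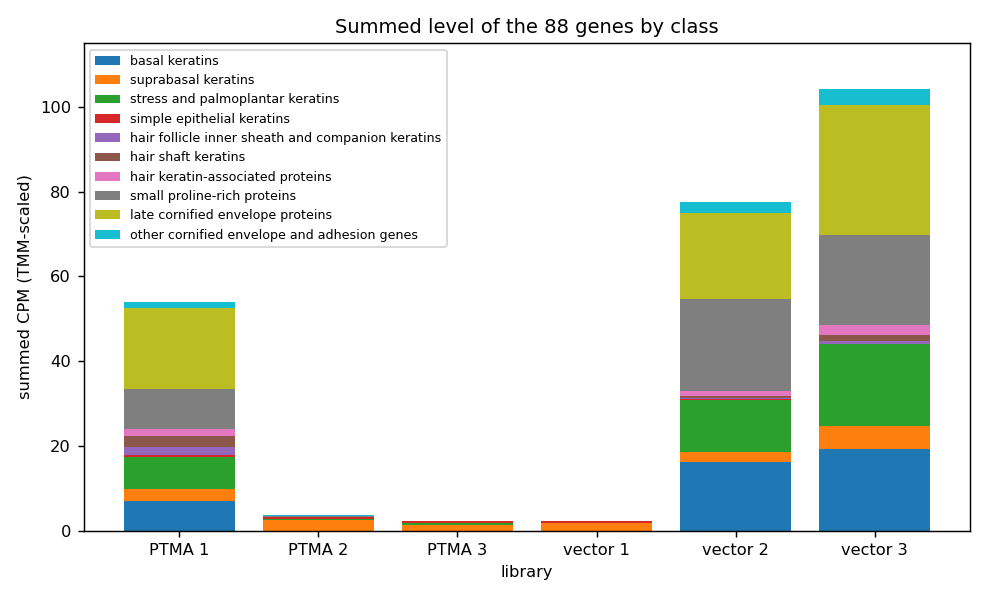
Stacked bars of the summed CPM (TMM-scaled) of the 88 genes in each library, PTMA 1 to 3 at the left and vector 1 to 3 at the right, coloured by class. PTMA 1, vector 2 and vector 3 reach 53.9, 77.5 and 104 CPM, and the other 3 libraries stay at 2.21 to 3.57 CPM, most of it Krt10.

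Among the keratins of the basal layer, Krt14 led the whole family. Krt14 (ENSMUSG00000045545) had 389, 0 and 0 counts in PTMA 1 to 3 and 0, 985 and 1140 in vector 1 to 3. Its partner Krt5 (ENSMUSG00000061527) had 35, 0 and 0 counts in PTMA 1 to 3 and 0, 57 and 56 in vector 1 to 3. Both were listed in the same 3 libraries, but not in like amounts: in FPKM, the authors' values per gene length, Krt14 stood at 3.06, 8.15 and 9.07 in PTMA 1, vector 2 and vector 3, and Krt5 at 0.217, 0.372 and 0.354. The ratio of Krt14 to Krt5 was thus 14.1 in PTMA 1, 21.9 in vector 2 and 25.6 in vector 3 on the FPKM scale. Krt15, a further basal keratin that also marks follicle stem cells, had 32 counts in PTMA 1 and 0 in every other library.

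The keratins of stressed skin, sole and follicle followed Krt14. Krt16 (ENSMUSG00000053797) had 180, 0 and 0 counts in PTMA 1 to 3 and 0, 396 and 620 in vector 1 to 3. Krt17 (ENSMUSG00000035557) had 244, 0 and 10 counts in PTMA 1 to 3 and 0, 258 and 382 in vector 1 to 3. Krt6b (ENSMUSG00000023041), a type II partner of Krt16, had 63, 9 and 19 counts in PTMA 1 to 3 and 0, 138 and 198 in vector 1 to 3. These 3 genes were high in the same libraries as Krt14, and Krt6b was the one keratin of this class listed in both PTMA 2 and PTMA 3. The ratio of Krt16 to Krt6b on the FPKM scale was 4.09 in PTMA 1, 4.12 in vector 2 and 4.48 in vector 3. Of the 75-base windows of Krt6b transcripts 36.9% also occur in Krt6a, and of those of Krt16 22.5% occur in Gm11597, so the split of reads between these genes is uncertain.

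Krt10, the type I keratin of the layers above the basal one, was the member read in every library. Krt10 (ENSMUSG00000019761) had 185, 169 and 90 counts in PTMA 1 to 3 and 104, 145 and 330 in vector 1 to 3. Vector 3 was the highest, and the other 5 libraries did not separate into those with and those without Krt14. Its level averaged 2.27 ± 0.79 CPM in PTMA and 3.14 ± 1.90 CPM in vector libraries (SD, n = 3 each). Its type II partner Krt1, one of the rows outside the rule, had 51, 0 and 0 counts in PTMA 1 to 3 and 0, 31 and 154 in vector 1 to 3. Krt10 was therefore listed without Krt1 in 3 libraries. An antisense gene, Gm11940, overlaps Krt10, and since the use of strand in counting is not given in the sources used here, reads of the 2 genes cannot be told apart. Krt18, a keratin of simple epithelia, had 37, 32 and 26 counts in PTMA 1 to 3 and 20, 26 and 0 in vector 1 to 3, and was at 0 in the library with the most Krt14.

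The SPRR genes code for small proline-rich precursors of the cornified envelope, and 10 of 11 were listed in PTMA 1. Sprr1a had 176, 4 and 0 counts in PTMA 1 to 3 and 0, 387 and 360 in vector 1 to 3. Sprr1b had 68, 0 and 0 counts in PTMA 1 to 3 and 0, 206 and 174 in vector 1 to 3. Both stood slightly higher in vector 2 than in vector 3, the reverse of Krt14. On the CPM scale Sprr1a was at 5.99 in vector 2 and 5.80 in vector 3, and Sprr1b at 3.19 and 2.81. Whether these small gaps exceed counting error was not tested. Sprr2d had 79, 0 and 0 counts in PTMA 1 to 3 and 0, 95 and 113 in vector 1 to 3. Sprr2a1 had 90, 2 and 0 counts in PTMA 1 to 3 and 0, 247 and 218 in vector 1 to 3. Sprr2a2 had 90, 2 and 0 counts in PTMA 1 to 3 and 0, 243 and 224 in vector 1 to 3. The counts of Sprr2a1 and Sprr2a2 are nearly the same in each library, and 94.7% of the sequence windows of Sprr2a2 also occur in Sprr2a1, so the pair cannot be read as separate genes.

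The LCE genes, whose products are added late to the envelope, made up the largest class in CPM in PTMA 1 and vector 3. The class summed to 1245, 4 and 0 counts in PTMA 1 to 3 and to 0, 1304 and 1899 in vector 1 to 3. Lce1f had 162, 0 and 0 counts in PTMA 1 to 3 and 0, 164 and 293 in vector 1 to 3. Lce1a2 had 158, 0 and 0 counts in PTMA 1 to 3 and 0, 167 and 252 in vector 1 to 3. For these genes PTMA 1 reached nearly the level of vector 2. Lce1c had 177, 4 and 0 counts in PTMA 1 to 3 and 0, 137 and 223 in vector 1 to 3, so that PTMA 1 lay above vector 2. Lce1a1 had 77, 0 and 0 counts in PTMA 1 to 3 and 0, 132 and 164 in vector 1 to 3. Lce1i had 91, 0 and 0 counts in PTMA 1 to 3 and 0, 130 and 151 in vector 1 to 3. The order of the libraries in both was that of Krt14, with PTMA 1 the lowest of the 3. Lce1g had 87, 0 and 0 counts in PTMA 1 to 3 and 0, 103 and 153 in vector 1 to 3. Lce1e had 76, 0 and 0 counts in PTMA 1 to 3 and 0, 98 and 119 in vector 1 to 3. Lce3c had 63, 0 and 0 counts in PTMA 1 to 3 and 0, 55 and 104 in vector 1 to 3. Vector 3 was the highest library for all 8 of these LCE genes. Calm4, a calmodulin-like protein of mouse epidermis, had 84, 0 and 0 counts in PTMA 1 to 3 and 0, 166 and 233 in vector 1 to 3.

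**Figure D2:**
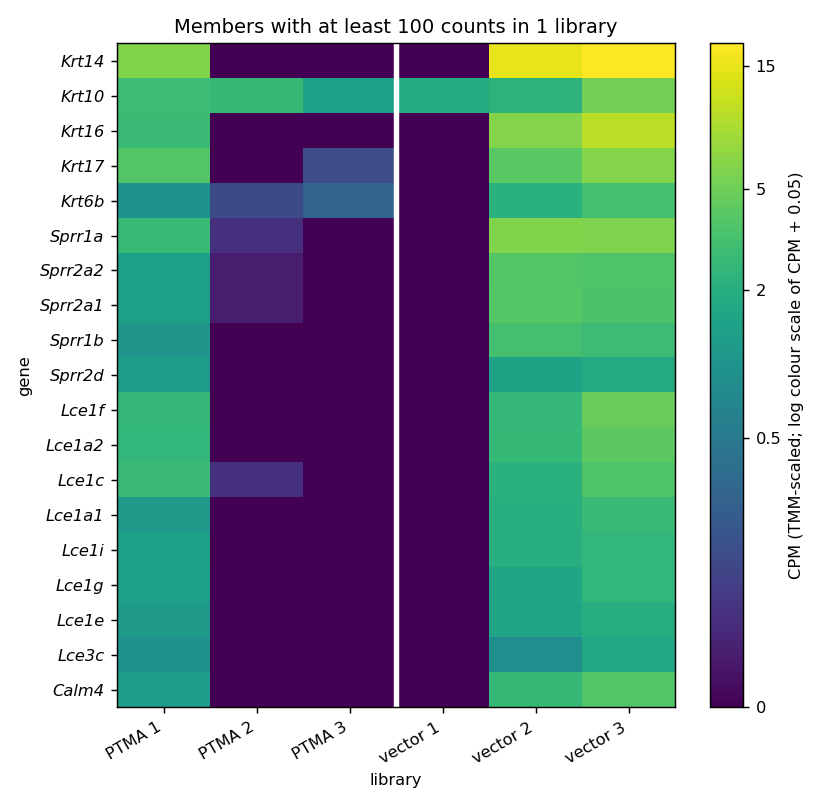
Heat map of the CPM (TMM-scaled, on a log colour scale with 0.05 added) of the 19 genes with at least 100 counts in some library, genes in rows and libraries in columns, PTMA 1 to 3 left of the white line and vector 1 to 3 right of it. Of the 18 genes other than Krt10, all 18 are at 0 in vector 1 and 12 are at 0 in vector 1, PTMA 2 and PTMA 3 together.

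The other 69 genes had under 100 counts in every library, with a highest count of 2 to 96, and 33 of them never reached 10. Most were genes of hair. The 32 keratin-associated proteins had at most 27 counts each and summed to 113, 0 and 0 counts in PTMA 1 to 3 and to 0, 76 and 149 in vector 1 to 3. The 8 hair shaft keratins, to which Krt87 was added after the data had been seen, summed to 170, 7 and 0 counts in PTMA 1 to 3 and to 0, 28 and 93 in vector 1 to 3. The 5 keratins of the follicle's inner sheath and companion layer summed to 112, 0 and 0 counts in PTMA 1 to 3 and to 0, 6 and 43 in vector 1 to 3. Among these, Krt71, a type II keratin of the inner sheath named here after its values were seen, had 60, 0 and 0 counts in PTMA 1 to 3 and 0, 0 and 31 in vector 1 to 3, and its type I partner Krt27 had 24, 0 and 0 in PTMA 1 to 3 and 0, 6 and 12 in vector 1 to 3. Hair genes were thus read in the same 3 libraries, but here PTMA 1 was above vector 2. Dsg1a, a desmosomal cadherin, had 4 counts in PTMA 2 and 0 elsewhere.

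The makeup of the signal differed among the 3 libraries that had it. Shares are of the counts of the 86 genes without Krt10 and Krt18, and hair genes are the keratin-associated proteins with the keratins of hair shaft and follicle sheath. Counts of 4 were in excess, with 892 to 979 genes per library listed at 4 counts, against 527 to 655 at 3 and 352 to 401 at 5, so 1 count may not stand for 1 fragment. Wilson 95% intervals were therefore computed with 4 counts taken as 1 fragment, and they cover counting error only. Hair genes gave 12.1% of the counts in PTMA 1 (10.0 to 14.5), 2.28% in vector 2 (1.61 to 3.33) and 4.65% in vector 3 (3.69 to 5.80). LCE genes gave 38.0% in PTMA 1 (34.7 to 41.3), 27.0% in vector 2 (24.6 to 29.6) and 31.0% in vector 3 (28.7 to 33.3). PTMA 1 thus had a larger share of hair and LCE genes than either vector library, beyond counting error. SPRR genes gave 18.6% in PTMA 1 (16.0 to 21.4), 29.2% in vector 2 (26.6 to 31.8) and 21.5% in vector 3 (19.5 to 23.6). This sum holds both Sprr2a1 and Sprr2a2, which may count the same reads, so the SPRR shares may be too high and their intervals too narrow. Both genes are also in the total of the 86 genes, so the shares of the other sets may be too low. Krt14 and Krt16 together, a pair that was not a planned class, gave 17.4% in PTMA 1 (14.9 to 20.1), 28.6% in vector 2 (26.1 to 31.2) and 28.7% in vector 3 (26.5 to 31.0). Krt17, of the same class as Krt16, had 244 counts in PTMA 1, 258 in vector 2 and 382 in vector 3. That whole class gave 13.9%, 15.8% and 18.6% of the counts of all 88 genes in these libraries, a smaller gap between PTMA 1 and vector 2. For SPRR genes PTMA 1 and vector 3 overlapped below vector 2, whereas for Krt14 and Krt16 both vector libraries overlapped above PTMA 1. PTMA 1 is a single library, so these are differences between libraries and not between groups.

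**Figure D3:**
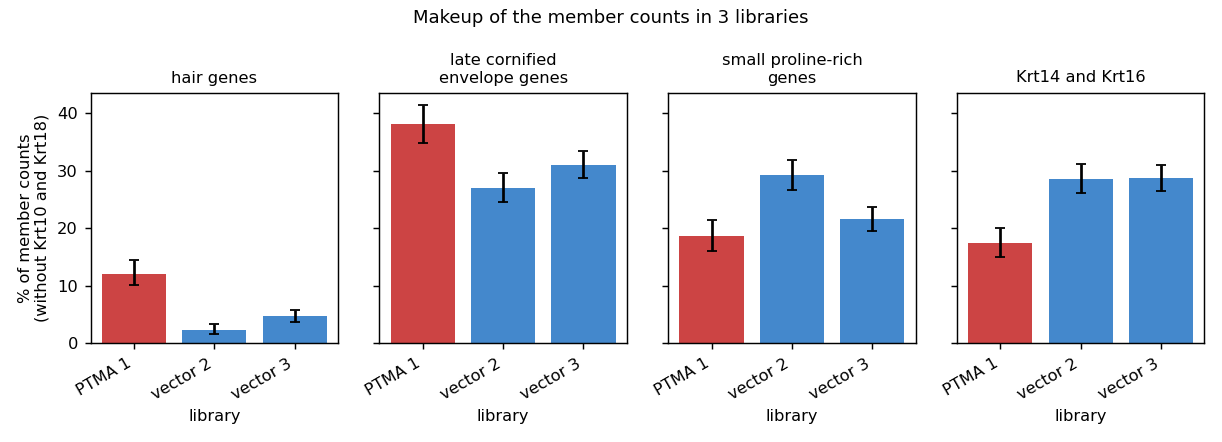
Bars of the percentage of the counts of 86 genes (without Krt10 and Krt18) given by 4 sets of genes, in PTMA 1 (red) and in vector 2 and vector 3 (blue). Error bars are Wilson 95% intervals with 4 counts taken as 1 fragment. Hair genes stand at 12.1% in PTMA 1, against 2.28% and 4.65% in vector 2 and vector 3.

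Over the 27 genes with at least 20 counts in each of these 3 libraries, Krt10 and Krt18 left out, the ratio of CPM in PTMA 1 to that in vector 3 had a median of 0.543 and ran from 0.277 to 1.3. Its median was 0.431 for the 8 SPRR genes (0.315 to 0.668) and 0.599 for the 13 LCE genes (0.449 to 1.3). Vector 3 over vector 2 had a median of 1.29 and ran from 0.721 to 1.97, with medians of 0.964 for the SPRR genes (0.721 to 1.24) and 1.63 for the LCE genes (0.987 to 1.97). The medians of both families differed, while their ranges overlapped. The SPRR genes here include both Sprr2a1 and Sprr2a2, which cannot be read as separate genes.

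Between the groups, no member passed the test. Of 88 genes 33 passed the filter on low counts, which a gene could do through only the libraries in which it was high, and 0 of these 33 had an adjusted p under 0.05 (edgeR quasi-likelihood test, Benjamini-Hochberg over all 16592 genes tested), where 0.0121% of all tested genes, Gdf9 and Pkd2l2, did. At an unadjusted p under 0.05 there were 0 of 33, against 4.65% of all tested genes. DESeq2 called 0 of the 30 members to which it gave an adjusted p, against 0.253% of all genes, and at an unadjusted p 0, against 5.48%. The groups overlapped for all 88 genes: 0 had all PTMA libraries on one side of all vector libraries, against 10.0% of the 27480 genes of the table.

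The fitted log2 fold changes were below 0 for 32 of the 33 genes, against 53.2% of all tested genes, with a median of -1.55, against -0.01 over all tested genes. The transcripts were held by 2 vector libraries and 1 PTMA library, and the direction is the one for which these genes were selected. Krt14 averaged 2.0 ± 3.46 CPM in PTMA and 11.2 ± 9.83 CPM in vector libraries (SD, n = 3 each), with a log2 fold change of -2.49 (SE 1.73, adjusted p = 0.951, edgeR). Krt16 had the lowest value, -2.54 (SE 1.72, adjusted p = 0.951, edgeR), and Krt18 the highest, 0.93 (SE 0.94, adjusted p = 0.952, edgeR). The median SE of the 33 genes was 1.62 on the log2 scale, against 0.15 over all tested genes. Leaving out 1 library moved the median over the members then tested by more than 1.5 times in 4 cases: it was -8.23 without PTMA 1, -0.91 without PTMA 2, -0.90 without PTMA 3 and -0.86 without vector 3. Without PTMA 1 the PTMA libraries that remain are at or near 0, so that fitted value depends on the prior count.

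**Figure D4:**
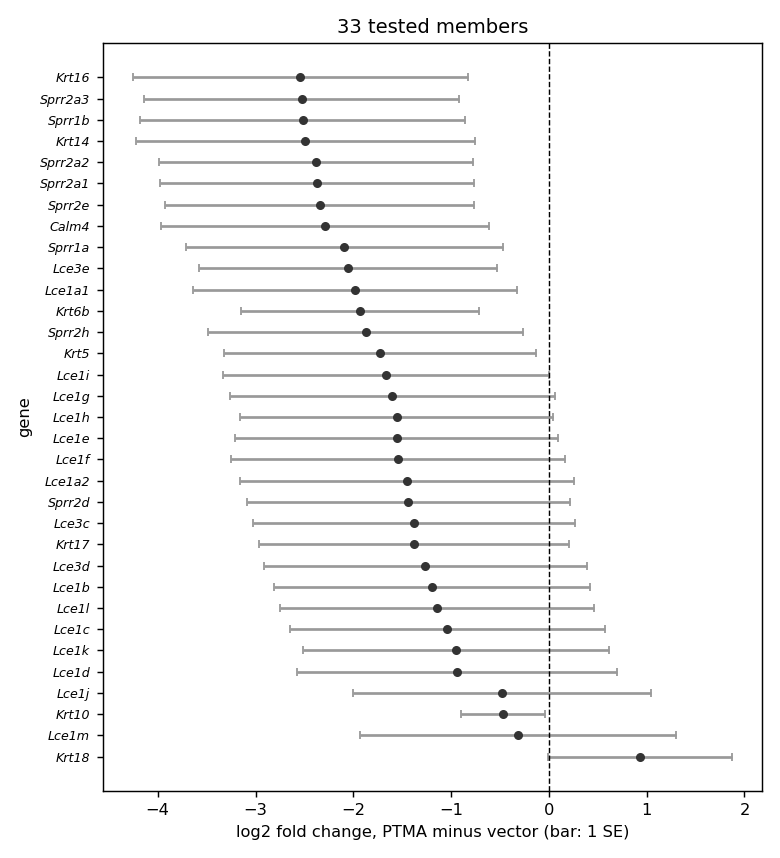
Points give the fitted log2 fold change, PTMA minus vector, of the 33 tested genes, with bars of 1 SE and a dashed line at 0. All but Krt18 lie below 0, with a median of -1.55, and no gene passes the test (lowest unadjusted p 0.148).

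The genes outside the 88 whose counts were spread over the libraries most like those of Krt14 included many known from skin. Likeness was measured as the overlap of a gene's shares of CPM over the 6 libraries with those of Krt14, for 11809 protein-coding genes with at least 100 counts, whose median overlap was 48.4%. The 10 genes most like Krt14 were Krtdap (98.1%), Fgfbp1 (97.1%), Dmkn (92.4%), Krt6a (90.7%), Cnfn (90.5%), Cstdc5 (88.1%), Dcn (86.0%), Lor (85.0%), Ly6d (83.4%) and Asprv1 (82.9%). Krtdap, a secreted keratinocyte protein, had 58, 0 and 0 counts in PTMA 1 to 3 and 0, 138 and 174 in vector 1 to 3. Lor, or loricrin, the main protein of the cornified envelope, had 36, 0 and 0 counts in PTMA 1 to 3 and 0, 49 and 119 in vector 1 to 3. Most of these genes are known from the outer epidermis, whereas Dcn codes for decorin, a proteoglycan of connective tissue, with 33, 8 and 0 counts in PTMA 1 to 3 and 0, 47 and 50 in vector 1 to 3. The 13 genes outside the 88 that met the rule of 20 counts in PTMA 1, vector 2 and vector 3 and 0 elsewhere included Krtdap, Lor, Krt1, Krt6a, Krt79, Cnfn, Dmkn, Fgfbp1, Ly6d and Prr9. Also among them was Saa3, an acute-phase gene, with 142, 0 and 0 counts in PTMA 1 to 3 and 0, 122 and 93 in vector 1 to 3.

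Lists of other skin genes gave a mixed picture. The 16 cornified envelope genes outside the 88 that had a row summed to 4.93, 1.65 and 1.81 CPM in PTMA 1 to 3 and to 2.38, 7.05 and 9.51 CPM in vector 1 to 3. This list was high in the same 3 libraries, and 0 of its 9 tested genes changed in either direction (1, Lypd3, had an unadjusted p under 0.05), with a median log2 fold change of -1.61. In PTMA 1 to 3, 3, 10 and 11 of the 16 were at 0, and in vector 1 to 3, 7, 5 and 2. The genes with most counts on this list were Scel, which had 39, 59 and 66 counts in PTMA 1 to 3 and 43, 64 and 58 in vector 1 to 3 and so did not follow Krt14, and Asprv1, a filaggrin-processing protease, which had 30, 7 and 19 counts in PTMA 1 to 3 and 8, 55 and 108 in vector 1 to 3. S100a3, a calcium-binding protein of hair cuticle, had 55, 21 and 17 counts in PTMA 1 to 3 and 18, 47 and 50 in vector 1 to 3. Lypd3 had 6, 4 and 0 counts in PTMA 1 to 3 and 12, 36 and 34 in vector 1 to 3. All PTMA libraries thus lay below all vector libraries for it, as the groups did not overlap for 10.0% of all 27480 genes. Its counts in PTMA 1 to 3 and vector 1 do not exceed the wider limit of 12 counts.

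The lists of basal and desmosomal genes were level as sums. A few single genes on them, picked after their values were seen, were listed mainly where Krt14 was, and others were not. Trp63, the transcription factor that defines the basal epidermis, had 6, 0 and 0 counts in PTMA 1 to 3 and 0, 8 and 0 in vector 1 to 3. These counts lie under the wider limit of 12 counts, so its spread over the libraries is not resolved. Fgfbp1, also on the basal list and described above as spread much like Krt14, had 25, 0 and 0 counts in PTMA 1 to 3. In vector 1 to 3 it had 0, 50 and 63. Itgb4, on the same list, had 30, 4 and 17 counts in PTMA 1 to 3 and 19, 43 and 0 in vector 1 to 3, and did not follow Krt14. The basal epidermis list of 10 genes summed to 79.8, 70.8 and 74.8 CPM in PTMA 1 to 3 and to 78.4, 86.2 and 68.7 CPM in vector 1 to 3, most of it from the integrin gene Itga6 and the laminin gene Lamb3, both read in every library. The desmosome list of 9 genes was carried by Pkp3, with 8089, 8449 and 7431 counts in PTMA 1 to 3 and 6287, 7603 and 7715 in vector 1 to 3. Dsp, or desmoplakin, which ties keratin filaments to the desmosome, had 0, 0 and 4 counts in PTMA 1 to 3 and 0, 20 and 12 in vector 1 to 3. Cdsn, or corneodesmosin, of the junctions between cornified cells, had 32, 0 and 0 counts in PTMA 1 to 3 and 0, 12 and 18 in vector 1 to 3. Both were at or near 0 in PTMA 2, PTMA 3 and vector 1, but Dsp was also at 0 in PTMA 1. Jup, also on the desmosome list, had 15, 12 and 35 counts in PTMA 1 to 3 and 25, 57 and 25 in vector 1 to 3. It did not follow Krt14. In these lists 0 of 7 and 0 of 6 tested genes changed in either direction, with median log2 fold changes of -0.16 and 0.03, and 0 had an unadjusted p under 0.05 (edgeR).

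Lists of general epithelial genes and of epidermal transcription factors were level across the libraries as sums. General epithelial genes, led by Spint1, Aqp3 and Epcam, summed to 22.2, 20.8 and 18.9 CPM in PTMA 1 to 3 and to 21.3, 21.5 and 20.1 CPM in vector 1 to 3. Cdh1, the epithelial cadherin on this list, had 4, 0 and 4 counts in PTMA 1 to 3 and 0, 0 and 9 in vector 1 to 3. All of these lie under the wider limit of 12 counts, so its spread is not resolved. Cldn7, on the same list, had 13, 0 and 0 counts in PTMA 1 to 3 and 6, 28 and 9 in vector 1 to 3. Spint1, Aqp3 and Epcam were read in every library. Transcription factors of epidermis and hair, led by Grhl1, stood at 1.79, 1.84 and 2.25 CPM in PTMA 1 to 3 and at 1.93, 1.61 and 1.87 CPM in vector 1 to 3. Neither list was higher in PTMA 1, vector 2 and vector 3 together, and 0 of their 5 and 2 tested genes changed in either direction or had an unadjusted p under 0.05 (edgeR).

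Of the markers of other cell types, the fibroblast list had its highest sums in PTMA 1, vector 2 and vector 3. Its single genes did not all show that split. The 6 genes summed to 4.31, 1.67 and 2.85 CPM in PTMA 1 to 3 and to 1.41, 4.44 and 8.56 CPM in vector 1 to 3, and 4 of the 6 were at 0 in vector 1. Col1a1, a chain of skin and bone collagen, had 136, 97 and 153 counts in PTMA 1 to 3 and 61, 185 and 350 in vector 1 to 3. It was thus also read where Krt14 was at 0, and PTMA 3 stood above PTMA 1. Col1a2 had 26, 2 and 6 counts in PTMA 1 to 3 and 0, 4 and 92 in vector 1 to 3. Dcn, described above, was spread much like Krt14. These markers' part in the keratin result was not tested. Melanocyte genes, led by Pmel, ranged from 2.22 to 3.59 CPM over the 6 libraries, and sebaceous gland genes, led by Far2, from 2.60 to 3.67 CPM. Skeletal muscle genes, led by Mylpf, ranged from 12.7 to 18.8 CPM, thymic epithelium genes, led by Prss16, from 14.8 to 16.4 CPM, and genes of simple epithelia, led by Lgals4, from 7.30 to 15.2 CPM. None of these 5 lists showed the split seen for Krt14. Langerhans and dendritic cell genes, led by H2-Ab1 and Cd74, summed to 64.2, 70.3 and 60.4 CPM in PTMA 1 to 3 and to 52.8, 53.9 and 47.7 CPM in vector 1 to 3. For this sum all PTMA libraries lay above all vector libraries, unlike for Krt14. Of all 27480 genes, taken singly and not as sums, 10.0% had groups that did not overlap, in either direction. Ccl22 had 389, 550 and 385 counts in PTMA 1 to 3 and 117, 55 and 44 in vector 1 to 3. Itgax overlapped between the groups, with 156, 195 and 188 counts in PTMA 1 to 3 and 210, 164 and 239 in vector 1 to 3. Flt3 overlapped as well, with 65, 49 and 18 counts in PTMA 1 to 3 and 0, 0 and 20 in vector 1 to 3. The counts of H2-Ab1 were close in PTMA 3, at 1999, and vector 2, at 1967. In all these lists of other cell types, the CD8 T cell list included, 0 tested genes changed in either direction (edgeR), and 1, Ccl22, had an unadjusted p under 0.05. In bulk RNA, fewer cells of a type and less RNA per cell cannot be told apart.

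**Figure D5:**
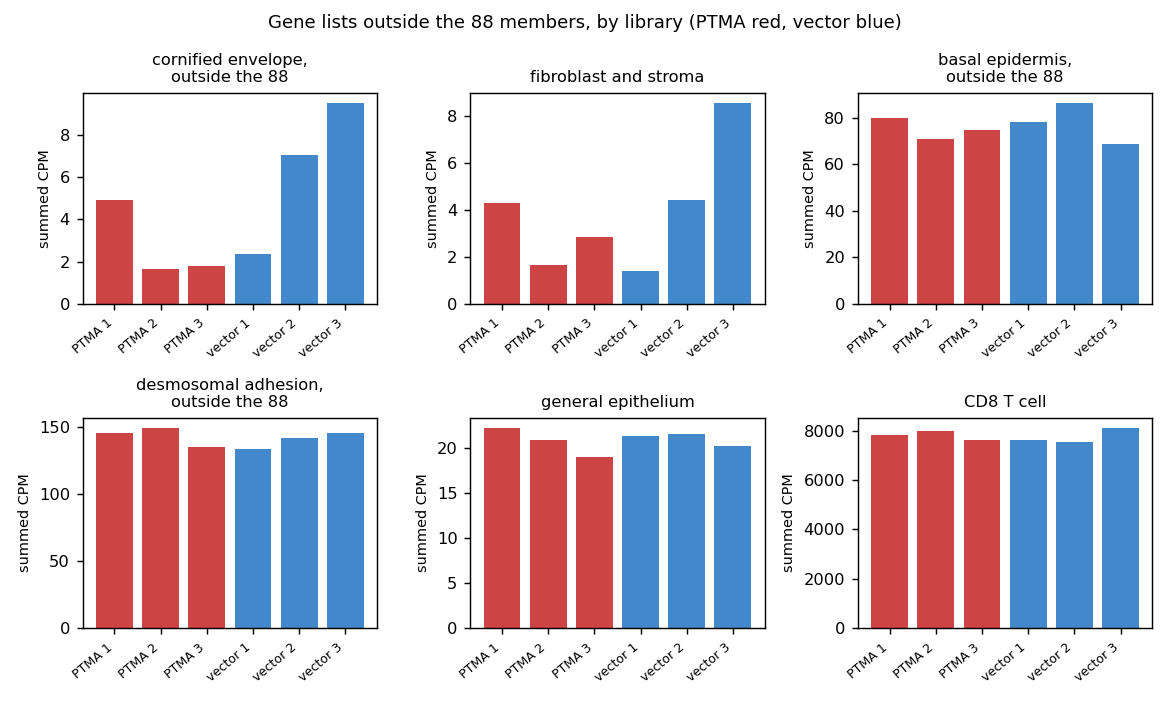
Summed CPM (TMM-scaled) of 6 gene lists outside the 88, one panel each with its own axis from 0, PTMA libraries in red at the left and vector libraries in blue at the right. The cornified envelope list reaches 4.93 CPM in PTMA 1 and 7.05 and 9.51 CPM in vector 2 and vector 3, against 1.65 to 2.38 CPM elsewhere, whereas the CD8 T cell list stays between 7527 and 8116 CPM.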

How the data were processed

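Bulk RNA of 6 libraries was sequenced in pairs after poly(A) selection, per the labels' protocols. The extraction protocol speaks of adipose RNA, although the cell type label is CD8+ T cell. The authors deposited 1 table that lists, for 27480 genes, a raw count in each library and, beside it, an FPKM value (per gene length and depth), per the file headers. HISAT2 2.0, StringTie 1.3.0, Bowtie 0.12.2 and mm8 are named, with no role, in the submitters' processing notes; no source used here names the counting program or its use of strand. Of 27405 identifiers found in GENCODE M21, 99.8% share a gene start or end with it, so coordinates are on GRCm38. Counts were fitted over the whole table with edgeR 4.0.16 (R 4.3.3): TMM, filterByExpr (minimum count 10), quasi-likelihood test, group as the only term, Benjamini-Hochberg threshold 0.05. DESeq2 1.42.0, other scalings, no filter, a replicate block and leaving out each library were alternatives. The fit was tested on simulated data in which a gene had the same expected level in all libraries of a group. That test does not speak of genes split within a group, as these were. Log2 fold changes are PTMA minus vector. Members with at least 100 counts in some library are named, and from each marker list reported 1 to 4 genes among the 4 with the largest summed count; the 10 non-members whose shares of CPM by library overlap most with Krt14 are also named. Krt5, Krt15, Krt18, Krt27, Krt71, Dsg1a, Trp63, Dsp, Cdsn, Cdh1, Saa3, Prr9 and the rows outside the rule were named after their values were seen. So were Itgb4, Cldn7, Flt3 and Lypd3. Sequence sharing was counted over 75-base windows of GENCODE M21 transcripts. Members, classes and lists were chosen with earlier results of these data known. Listed genes without a row were not analysed here. One gene list is not reported here.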

Additional observations from a re-analysis of the deposited data

How the results depend on the processing

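The number of members called was 0 in all 11 alternatives. The number of genes called over the whole table was 2, and 0 with no filter on low counts, 42 with DESeq2 and 0 with a replicate block. It was 0 to 4 with 1 library left out (4 without PTMA 2, 1 without vector 3, 0 without PTMA 3 or vector 1). The median log2 fold change of the tested members was -1.55, kept its sign throughout, was -3.85 with the replicate block and ran from -8.23 to -0.86 when a library was left out. Deviations from the group means in libraries of the same number had correlations of -0.12, -0.16 and -0.12 across genes, so the numbers give no sign of pairing. Of the 19 named members' fold changes, 208 alternative values kept direction and side of the threshold and 1 reversed: Krt10 was at 0.15 without vector 3 (adjusted p = 0.894, edgeR), with a range of -0.74 to 0.15 when 1 library was left out and -0.47 with all libraries. Among the 208, the DESeq2 values of Sprr1a and Sprr2a2 had no adjusted p, so only their direction was compared. Summed as deposited FPKM, the 88 genes stood at 46.8, 1.63 and 1.10 in PTMA 1 to 3 and at 0.994, 67.0 and 83.6 in vector 1 to 3, the same libraries high and low as in CPM. The cause of these changes was not tested. With counts near 0 in 3 libraries, levels of single genes there are not resolved at this depth.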
